A study of Mus musculus with 27 samples.

Results

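The 32 genes described here build cholesterol from acetyl-CoA, control that synthesis, or take up, move and esterify cholesterol, with 5 genes of fatty acid and lipid synthesis that answer to the same transcription factors. They were picked by pathway membership and matched by Ensembl identifier to 32 of the 46078 gene rows of each count table, and some steps of the pathway were not analysed here. RNA was sequenced from epithelium scraped from the colon of 27 male mice of the C57BL/6 strain, with 3 mice in each of 9 groups. The control mice received sesame oil vehicle, and the other 8 groups received TCDD, the dioxin 2,3,7,8-tetrachlorodibenzo-p-dioxin and a ligand of the aryl hydrocarbon receptor (AhR), in that oil, at 0.01 and 0.03, 0.1 and 0.3, 1 and 3, or 10 and 30 μg/kg. All mice, controls included, were gavaged every 4 days for 28 days, for 7 gavages in all, from an age of 28 days to 56 days. A scraping is not a sorted population, so the cells beneath the epithelium can contribute RNA, and fewer cells of a type and less RNA per cell cannot be told apart in such bulk samples.

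Cholesterol is made by joining acetyl-CoA units into mevalonate, converting mevalonate to isoprenoid units, condensing these to squalene, closing squalene to lanosterol and trimming lanosterol to cholesterol. When sterols are scarce in the endoplasmic reticulum, SCAP escorts the membrane-bound SREBP transcription factors to the Golgi, where they are cut and released to the nucleus to switch on most of these enzymes. When sterols are plentiful, the INSIG proteins hold SCAP in place. The intestinal epithelium takes up sterols through NPC1L1 and esterifies them with the SOAT enzymes, and AhR, when bound by TCDD, acts on genes whose control regions hold a dioxin response element (DRE) with the core letters GCGTG.

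The libraries held between 9305441 and 14371035 reads assigned to genes, with a median of 11651026. Cyp1a1, the AhR target used as a check of the doses, stood at 0 to 0.0984 CPM (reads of a gene scaled to the size of its library) in the vehicle mice and at 2066 to 2427 CPM in the mice at 30 μg/kg. The 10 colonocyte markers summed to between 9740 and 16773 CPM in every mouse, whereas the 10 adipocyte markers summed to 17.1 to 43.4 CPM in vehicle, to 182.5 CPM in mouse 9 at 0.01 μg/kg and to 295.4 CPM in mouse 67 at 30 μg/kg. Mouse 67 also had the highest sum of 8 smooth muscle markers, at 651 CPM against 66.6 to 113 CPM in vehicle. Circadian clock genes differed between low and high doses as well. At 30 μg/kg 9 of 9 clock genes of 1 phase, Per and Nr1d genes among them, were called higher, against 2.95% of all genes. Of 5 genes of the opposite phase 4 were called lower, against 3.21%. The clock score is the mean log2 CPM of the former minus that of the latter. It was -2.82 to -1.89 up to 0.1 μg/kg, except for 1.46 in mouse 14 at 0.01 μg/kg. At 0.3 μg/kg the score was -1.22 to -0.42, and from 1 to 30 μg/kg 0.90 to 2.19. The index barcodes split the libraries into a first set of 16 mice, which holds vehicle through 0.3 μg/kg and mouse 41 at 1 μg/kg, and a second set of 11 mice, which holds mice 43 and 44 at 1 μg/kg and all mice at 3, 10 and 30 μg/kg, so set and dose cannot be told apart between low and high doses.

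RefSeq start sites were matched for 25 of the 32 genes, and the 250 bases before the start are shown for Hmgcs1 and Mvk, enzymes early in the pathway that varied with nearly all the others between mice, and for the 5 genes with a dose slope described further on. The sequences run 5′ to 3′ on the gene's strand in GRCm38.p6, and the capitals mark a sterol response element (TCACNCCAC), a DRE core (GCGTG) or a CCAAT box (CCAAT, bound by NF-Y, a partner of the SREBPs), each on either strand.
Hmgcs1, chr13:119690101-119690350, plus strand: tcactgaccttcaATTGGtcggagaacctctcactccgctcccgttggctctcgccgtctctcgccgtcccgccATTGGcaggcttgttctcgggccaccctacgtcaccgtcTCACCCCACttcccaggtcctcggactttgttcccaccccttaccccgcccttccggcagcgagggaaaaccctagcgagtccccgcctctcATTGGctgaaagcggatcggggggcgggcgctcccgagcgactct
Mvk, chr5:114444019-114444268, plus strand: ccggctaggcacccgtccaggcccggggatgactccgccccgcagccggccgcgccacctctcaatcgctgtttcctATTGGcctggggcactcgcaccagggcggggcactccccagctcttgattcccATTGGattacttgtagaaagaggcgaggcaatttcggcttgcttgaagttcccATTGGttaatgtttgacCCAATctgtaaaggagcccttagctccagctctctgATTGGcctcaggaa
Nsdhl, chrX:72918271-72918520, plus strand: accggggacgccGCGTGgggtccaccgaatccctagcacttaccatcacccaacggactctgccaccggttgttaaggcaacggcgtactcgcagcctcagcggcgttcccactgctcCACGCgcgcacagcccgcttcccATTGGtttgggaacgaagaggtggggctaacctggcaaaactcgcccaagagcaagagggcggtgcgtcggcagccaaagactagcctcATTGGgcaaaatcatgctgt
Ebp, chrX:8193513-8193762, minus strand: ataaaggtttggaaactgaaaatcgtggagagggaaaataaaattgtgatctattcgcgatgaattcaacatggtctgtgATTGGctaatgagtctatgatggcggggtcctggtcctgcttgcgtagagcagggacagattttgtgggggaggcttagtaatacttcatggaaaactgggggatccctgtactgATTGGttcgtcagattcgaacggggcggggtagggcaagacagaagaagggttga
Insig2, chr1:121332590-121332839, minus strand: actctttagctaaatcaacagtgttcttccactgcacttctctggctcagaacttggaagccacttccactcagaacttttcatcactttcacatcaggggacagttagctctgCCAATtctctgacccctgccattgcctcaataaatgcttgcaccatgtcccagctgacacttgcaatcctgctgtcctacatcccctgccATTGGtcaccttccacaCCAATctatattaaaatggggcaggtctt
Soat1, chr1:156474329-156474578, minus strand: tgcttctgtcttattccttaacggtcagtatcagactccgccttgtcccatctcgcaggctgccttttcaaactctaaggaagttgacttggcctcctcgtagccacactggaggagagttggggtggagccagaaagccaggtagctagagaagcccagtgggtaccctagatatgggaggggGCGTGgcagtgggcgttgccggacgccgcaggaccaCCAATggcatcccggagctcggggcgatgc
Npc1l1, chr11:6230246-6230495, minus strand: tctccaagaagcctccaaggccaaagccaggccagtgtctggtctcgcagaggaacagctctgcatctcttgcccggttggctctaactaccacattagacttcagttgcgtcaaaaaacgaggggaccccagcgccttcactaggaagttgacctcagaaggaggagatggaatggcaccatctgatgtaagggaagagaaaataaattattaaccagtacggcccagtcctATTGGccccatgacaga
Of the 25 members searched, only Hmgcs1 had a match to the sterol response element in the window of 300 bases. The match reads TCACCCCAC at 137 bases before its start. No start was matched for Fdps, Fdft1, Sqle, Stard4, Soat2, Scd1 and Scd2, so these were not searched. Only the letters given above were sought, so other forms of the element would be missed. The element was found in 1.44% of the 27025 genes with a promoter in the RefSeq table. A CCAAT box was found in 21 of the 25 members and in 14 of the 15 matched sterol enzymes, against 41.06% of those 27025 genes. Hmgcs1 held 3 CCAAT boxes and Mvk held 5 in the bases shown. A DRE core was found in 15 of the 25 members, against 35.15% of those 27025 genes. Among these members were Soat1, at 66 bases before its start, and Nsdhl, with 2 cores in the bases shown. The 27025 genes were counted whether or not they are expressed in the colon, whereas all 25 members were expressed. Whether the motifs are more frequent in the members than in other expressed genes was not tested. Insig2 has 3 starts in the table, and its DRE cores lie before the other starts, not in the bases shown. Npc1l1 and Ebp held no DRE core in this window. In these 7 stretches no motif shared a base with another.

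The pathway was expressed along its whole length in the colon, and every member passed the filter on low counts. Levels between genes are given as CPM per kilobase of exon, as means of the 27 mice. In the mevalonate part, Hmgcs1, which condenses acetyl-CoA and acetoacetyl-CoA, was the most abundant at 71.9 ± 13.6 (SD) and Fdps, which makes farnesyl pyrophosphate, the least at 4.01 ± 0.97. Idi1, the isomerase of the isoprenoid unit, stood at 24.5, Mvd, which makes that unit, at 12.7, Mvk and Pmvk, the kinases of mevalonate, at 10.2 and 9.06, and Acat2, which makes acetoacetyl-CoA, at 5.67. The extremes of this stretch thus lay far apart in level, Mvk and Pmvk were within an SD of each other, and Hmgcs1 was above the next member in the order, Srebf2, in 27 of 27 mice. Fdft1, which makes squalene, and Sqle, which oxidizes it, did not separate, at 18 ± 2.76 and 17.6 ± 3.00, and Fdft1 was the higher of the pair in 17 of 27 mice. Lss, which closes the ring to lanosterol, was lower at 7.68 ± 1.56.

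Among the enzymes after lanosterol, Cyp51, the lanosterol demethylase, was highest at 30.4 ± 5.08 CPM per kb and Tm7sf2, a sterol reductase, lowest at 3.05 ± 0.47. Msmo1, the methyl sterol oxidase, stood at 19.6, Ebp, the sterol isomerase, at 15.8, Dhcr7, the last reductase of the pathway, at 15.5, Sc5d, the desaturase before it, at 12.3, Nsdhl, which removes the carboxylated carbon, at 10.4 and Hsd17b7, which reduces the ketone, at 6.74. Akap9 overlaps Cyp51 with up to 5263 reads in a library, Ctsb overlaps Fdft1 with up to 3965, Vps51 overlaps Tm7sf2 with up to 470 and Rai1 overlaps Srebf1 with up to 863. The strand setting of the counting is not given in the sources used here, so the levels of these 4 members and their places in the order are uncertain. Among the control genes Srebf2, the factor that drives sterol synthesis, was highest at 43.1 ± 3.20 and Scap lowest at 12.5 ± 0.64. Srebf2 was above Srebf1, its fatty acid counterpart, which stood at 14.7, and Insig1 at 40.5 was above Insig2 at 13.8. Stard4, a carrier of sterol between membranes, stood at 41.8 ± 5.39, while the uptake transporter Npc1l1 and the esterifying enzyme Soat2 were the least abundant members, at 1.26 ± 0.74 and 1.24 ± 0.42, and did not separate. Soat1, the other enzyme that esterifies sterol, was expressed at 11.8 ± 2.13. Of the fatty acid genes, Scd2 was the most abundant of all 32 members at 97 ± 27.8 and Lpin1, a phosphatidate phosphatase, the lowest at 1.86 ± 0.64, with Fasn at 39.4, Scd1 at 26 and Acaca at 8.99.

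The comparison of each dose with vehicle asks whether TCDD changed these genes in the colon. None of the 32 members was called at any of the 8 doses, a call being an adjusted p below 0.05 and a fold of at least 1.5 in edgeR's quasi-likelihood test. Of the 16496 genes tested, 0% were called at each dose up to 0.3 μg/kg, and 0.2%, 0.697%, 1.78% and 6.16% were called at the doses of 1, 3, 10 and 30 μg/kg, respectively. At an unadjusted p under 0.05 the members numbered 3, 0, 1, 2, 7, 9, 7 and 4 of 32 from the lowest dose to the highest, against 6.35%, 4.64%, 6.37%, 5.19%, 9.8%, 16.0%, 17.8% and 27% of all genes. DESeq2 called 1 member at 30 μg/kg, Npc1l1 (log2 fold change 1.47, adjusted p = 0.0235), against 6.81% of all genes, and limma voom called none at any dose.

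**Figure D1:**
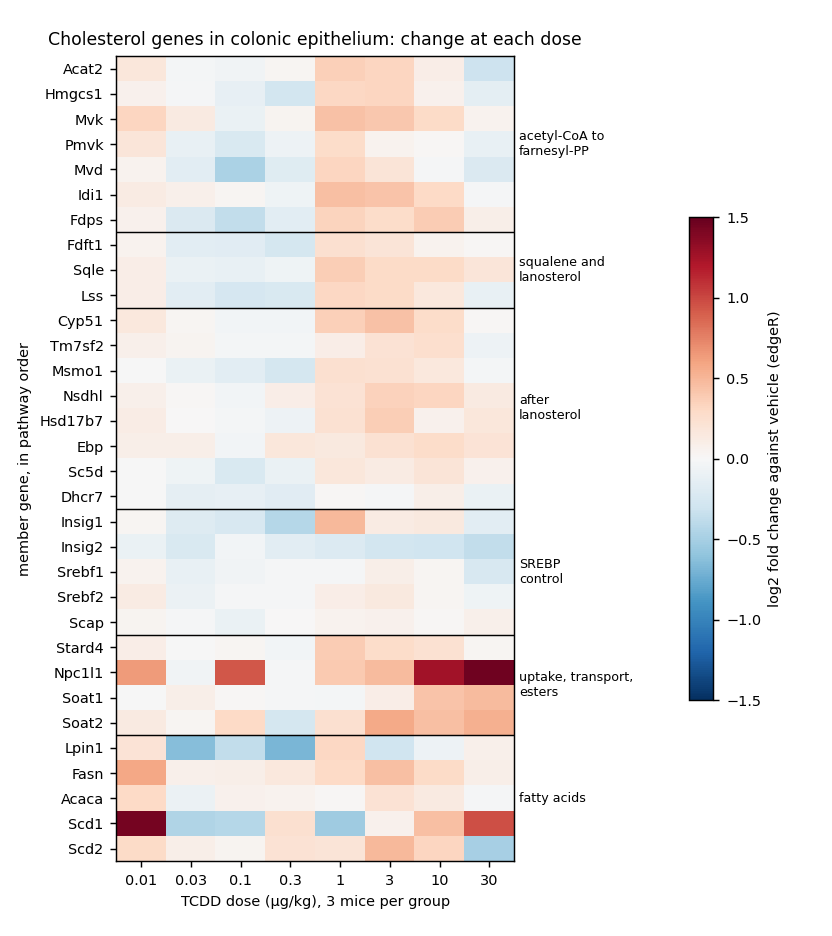
Colour gives the edgeR log2 fold change against vehicle of each member (rows, in pathway order) at each TCDD dose (columns, μg/kg, 3 mice per group). The 18 sterol enzymes were all above vehicle at 1 μg/kg and split 9 above and 9 below at 30 μg/kg, and no cell of the map was called.

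The 18 sterol enzymes had small fold changes that mostly shared a sign within a dose, and none of them was called. At the lowest dose, 0.01 μg/kg, 15 of 18 were above vehicle with a median of 0.082, which was 0.022 without vehicle mouse 3 and 0.17 without mouse 11. With the adipocyte score, the mean log2 CPM of the adipocyte markers, as a covariate this median was 0.20, with 18 of 18 above. At 0.03 and 0.3 μg/kg 11 and 14 of 18 were below, with medians of -0.049 and -0.079. The median at 0.03 μg/kg was 0.018 without vehicle mouse 2, with 10 of 18 above, and -0.12 without vehicle mouse 3. That at 0.3 μg/kg was -0.028 without mouse 34 and -0.20 without mouse 35. All 18 were above vehicle in the group given 1 μg/kg, where their log2 fold changes ran from 0.02 to 0.45 around a median of 0.30 and the median of all genes was -0.0095. For 3 and 10 μg/kg it was 17 of 18 in each case, with medians of 0.28 and 0.17. The latter was 0.10 without vehicle mouse 3, with 15 of 18 above, and 0.27 without vehicle mouse 2. The highest dose split them into 9 above and 9 below, around a median of -0.0014. At 0.1 μg/kg, in contrast, 17 of 18 were below vehicle, with a median of -0.11 that was -0.23 without mouse 25, -0.037 without mouse 27 and -0.049 without vehicle mouse 2. Vehicle lies in the first index set and the groups at 3, 10 and 30 μg/kg in the second, and the medians depended on how this was fitted. With the index set as a term, which only the 3 mice at 1 μg/kg inform, the median at 30 μg/kg was 0.28 with 16 of 18 above vehicle, and those at 1, 3 and 10 μg/kg were 0.44, 0.55 and 0.46. With the clock score as a covariate they were 0.14, 0.11, 0.028 and -0.18 from 1 to 30 μg/kg, with 14, 13, 11 and 7 of the 18 above vehicle. Without mouse 41 the median at 1 μg/kg was 0.17, with 16 of 18 above. These enzymes moved together between mice within groups, as described further on, so the 18 signs are not independent of each other. Mvk reached the highest unadjusted rank among the enzymes at 1 μg/kg, with a log2 fold change of 0.44 ± 0.16 (SE) and an adjusted p of 0.310, and Cyp51 at 3 μg/kg, with 0.44 ± 0.15 and an adjusted p of 0.134.

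In the single mice Hmgcs1 stood at 368.5, 275 and 325 CPM in vehicle, at 434, 356 and 416 CPM at 1 μg/kg and at 421, 416 and 376 CPM at 3 μg/kg. At 30 μg/kg mouse 65 stood at 404 CPM and mice 66 and 67 at 248 and 219.9 CPM. The vehicle mice overlapped with the mice at 1 μg/kg, and the 3 mice at 30 μg/kg spanned the vehicle range on both sides. The summed CPM of the 18 enzymes ran from 1101 to 1368 in vehicle and did not overlap with that at 1 μg/kg, 1371 to 1683, or at 3 μg/kg, 1387.5 to 1576. Vehicle mouse 2, at 1368, and mouse 43 at 1 μg/kg, at 1371, nearly met. Of all single genes tested, 13.1% lay wholly above vehicle at 3 μg/kg. The sum had means ± SD of 1239 ± 134 in vehicle, 1306 ± 163 at 0.01, 1200 ± 54.9 at 0.03, 1137 ± 184 at 0.1, 1113 ± 117 at 0.3, 1510 ± 159 at 1, 1507 ± 104 at 3, 1384 ± 78.0 at 10 and 1213 ± 294 at 30 μg/kg (n = 3 each). The spread at 30 μg/kg, from 956 in mouse 67 to 1533 in mouse 65, was the widest of the 9 groups. Mouse 67 is the mouse with the highest adipocyte and smooth muscle sums. With the adipocyte score as a covariate the median of the 18 enzymes at 30 μg/kg was 0.11, with 11 above vehicle and 7 below, and the part of smooth muscle was not tested. Without mouse 67 the median at 30 μg/kg was 0.17 and without mouse 65 it was -0.19.

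Across all mice the change per step of dose was fitted as a slope, in log2 units for each rise from vehicle through the 8 doses in order, and a slope was called at an adjusted p below 0.05 alone. Of all genes tested 23.4% had a called slope, 11.8% upward and 11.6% downward. Of the members 5 of 32 were called, Soat1, Ebp, Npc1l1 and Nsdhl upward and Insig2 downward, a share below that of all genes. Within the first index set, vehicle to 1 μg/kg, 0 of 32 members were called against 0.00606% of all genes, 0 members had an unadjusted p under 0.05 against 7.72% of all genes, and limma voom called 0. Within the second index set, 1 to 30 μg/kg, 1 of 32 was called, Soat1, against 2.95% of all genes. With the index set as a term or the clock score as a covariate no member kept a called slope, but the slopes themselves were not all smaller. That of Soat1 was 0.054 in the fit without these terms, 0.057 with the index set (adjusted p = 0.346) and 0.071 with the clock score (adjusted p = 0.225). That of Npc1l1 was 0.14, 0.18 (adjusted p = 0.363) and 0.26 (adjusted p = 0.160) in the same order. Ebp gave 0.031, 0.037 and 0.012, Insig2 gave -0.039, -0.033 and -0.00087, and Nsdhl gave 0.038, 0.013 and -0.0044. The slopes of the sets differed for 0 of 32 members at an adjusted p below 0.05, against 1.04% of all genes, the smallest being 0.0896 for Soat1, with 6 members under an unadjusted 0.05 against 13.0% of all genes.

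**Figure D2:**
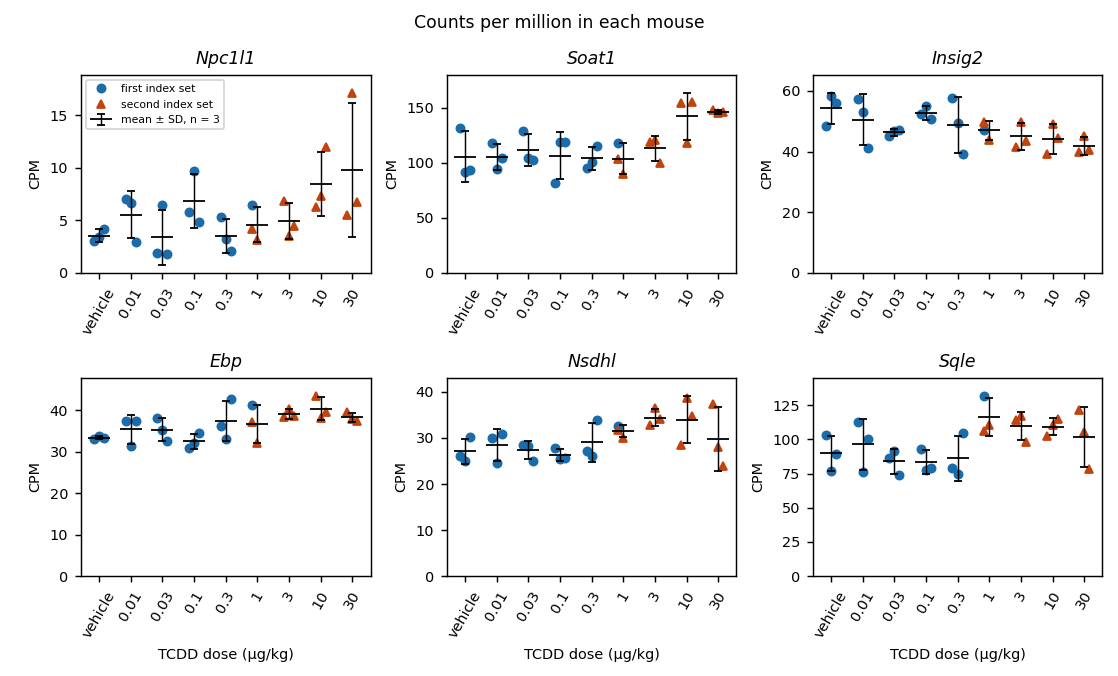
CPM (y axis, from 0) in each of the 27 mice by TCDD dose (x axis) for the 6 members with the smallest p of the slope, with circles and triangles for the first and second index sets and bars for the mean ± SD (n = 3). Soat1 was higher at 10 and 30 μg/kg, Npc1l1 had its highest values in mice 66 and 59, and Insig2 was lowest at the upper doses.

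Soat1, which esterifies cholesterol for storage, was higher in the mice at the upper doses. It stood at 132, 91.4 and 93.4 CPM in the vehicle mice, at 154, 118 and 156 CPM at 10 μg/kg and at 148, 145 and 146 CPM at 30 μg/kg. All 3 mice at 30 μg/kg were above every vehicle mouse, and mouse 2 was well above the other vehicle mice. The Hox score, a summary of 24 Hox genes used here for position along the colon, was -3.53 in mouse 2, against 0.11 and 1.45. At 10 μg/kg it was -4.66, 3.15 and -3.84, and at 30 μg/kg -3.19, 0.015 and 0.398, in the same order of mice. With this score as a covariate the Soat1 slope was 0.045 (adjusted p = 0.00402), and the part of position was not tested further. The groups between were flat, with means ± SD of 106 ± 12.0 at 0.01, 112 ± 14.5 at 0.03, 107 ± 21.6 at 0.1, 104 ± 10.2 at 0.3, 104 ± 14.1 at 1 and 113 ± 11.8 CPM at 3 μg/kg. The slope was 0.054 ± 0.015 (SE, adjusted p = 0.00779), and within the second index set 0.21 ± 0.042 (adjusted p = 0.0151). Against vehicle the log2 fold changes for 10 and 30 μg/kg were 0.43 ± 0.15 (adjusted p = 0.126) and 0.47 ± 0.15 (adjusted p = 0.0502, edgeR). Without vehicle mouse 2 the value at 30 μg/kg was 0.67 (adjusted p = 0.0185) and that at 10 μg/kg 0.63 (adjusted p = 0.0499), both then past the call, and without mouse 44 the slope within the second set was not called. Gm37648 overlaps Soat1 and held at most 24 reads in a library.

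Npc1l1, the transporter that brings dietary sterol into the enterocyte, had the largest fold of the 32 members at 30 μg/kg, with a wide spread. It stood at 3.05, 3.37 and 4.22 CPM in vehicle and at 5.54, 17.1 and 6.72 CPM at 30 μg/kg. The mice at 30 μg/kg were all above vehicle, and mouse 66 stood apart from its group. At 10 μg/kg the values were 6.23, 7.28 and 11.9 CPM. The remaining group means ± SD were 5.53 ± 2.25 at 0.01, 3.38 ± 2.64 at 0.03, 6.80 ± 2.56 at 0.1, 3.53 ± 1.62 at 0.3, 4.60 ± 1.65 at 1 and 4.94 ± 1.69 CPM at 3 μg/kg, and mouse 27 at 0.1 μg/kg, with 9.70 CPM, was above 2 of the mice at 30 μg/kg. The slope was 0.14 ± 0.046 (adjusted p = 0.0251), and the log2 fold changes for 10 and 30 μg/kg were 1.26 ± 0.49 (adjusted p = 0.171) and 1.46 ± 0.49 (2.75-fold, adjusted p = 0.0577). Without mouse 66 the slope was 0.095 (adjusted p = 0.143) and the change at 30 μg/kg 0.78, and without mouse 59 the slope was 0.12 (adjusted p = 0.0548). Within the second set the slope was 0.50 ± 0.14 (adjusted p = 0.0759).

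Insig2, which holds SCAP in the endoplasmic reticulum, was the only member with a called slope downward. It stood at 48.5, 58.3 and 56.1 CPM in vehicle and at 39.8, 45.2 and 40.7 CPM at 30 μg/kg, so that the groups did not overlap. In between, the means ± SD were 50.6 ± 8.46 at 0.01, 46.3 ± 1.12 at 0.03, 52.7 ± 2.24 at 0.1, 48.8 ± 9.27 at 0.3, 47.0 ± 2.98 at 1, 45.0 ± 4.31 at 3 and 44.2 ± 4.99 CPM at 10 μg/kg. Mouse 35 at 0.3 μg/kg, at 39.2 CPM, was lower than any of the mice at 30 μg/kg. Its Hox score was -4.68, against 1.58 and 0.94 in the other mice at 0.3 μg/kg. At 0.03 μg/kg the Hox score ran from -5.04 to 1.72, while Insig2 varied little. With the Hox score as a covariate the Insig2 slope was -0.035 (adjusted p = 0.0104). The slope was -0.039 ± 0.011 (adjusted p = 0.00941) and the log2 fold change at 30 μg/kg -0.37 ± 0.13 (adjusted p = 0.0553). Insig1, its partner gene, stood at 135, 115 and 128 CPM in vehicle and at 151, 101 and 87.1 CPM at 30 μg/kg, with a slope of 0.021 ± 0.024 (adjusted p = 0.572). With the clock score as a covariate the Insig2 value at 30 μg/kg was 0.14 and its slope -0.00087. Gm37174 overlaps Insig2 and held at most 45 reads in a library.

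Ebp and Nsdhl, enzymes after lanosterol, and Sqle, an enzyme before it, also had upward slopes, which were called for Ebp and Nsdhl. Ebp stood at 33.1, 33.7 and 33.3 CPM in vehicle and at 39.6, 37.9 and 37.4 CPM at 30 μg/kg, without overlap, and at 43.5, 38.1 and 39.5 CPM at 10 μg/kg. Its means ± SD were 35.4 ± 3.53 at 0.01, 35.4 ± 2.81 at 0.03, 32.5 ± 1.80 at 0.1, 37.4 ± 4.90 at 0.3, 36.8 ± 4.60 at 1 and 39.1 ± 1.13 CPM at 3 μg/kg, and its slope was 0.031 ± 0.0089 (adjusted p = 0.0131). The 3 vehicle mice were close together, and mouse 35 at 0.3 μg/kg, at 42.8 CPM, was above all mice at 30 μg/kg. With the Hox score as a covariate the Ebp slope was 0.026 (adjusted p = 0.0143). Nsdhl stood at 26, 25.1 and 30.1 CPM in vehicle and at 37.3, 28.0 and 24.0 CPM at 30 μg/kg, so the groups overlapped. The highest Nsdhl means were 34.4 ± 1.85 at 3 μg/kg and 34 ± 5.18 at 10 μg/kg, after 28.5 ± 3.42 at 0.01, 27.3 ± 1.96 at 0.03, 26.3 ± 1.35 at 0.1, 29.1 ± 4.23 at 0.3 and 31.5 ± 1.34 CPM at 1 μg/kg. Its slope was 0.038 ± 0.013 (adjusted p = 0.0300), and its change at 30 μg/kg, 0.14 on the log2 scale, was -0.059 without mouse 65. Sqle, the squalene oxidase, stood at 103, 77.3 and 89.1 CPM in vehicle and at 121.5, 105 and 78.2 CPM at 30 μg/kg, with overlap. Its means ± SD were 96.5 ± 18.6 at 0.01, 84.0 ± 8.93 at 0.03, 83.5 ± 8.50 at 0.1, 86.1 ± 16.3 at 0.3, 116 ± 13.8 at 1, 110.0 ± 10.4 at 3 and 109 ± 6.18 CPM at 10 μg/kg. Its slope of 0.042 ± 0.016 was not called (adjusted p = 0.0522).

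Between 30 μg/kg and vehicle the mice of 6 of the 32 members did not overlap, Ebp, Scap, Npc1l1 and Soat1 being higher and Insig2 and Srebf1 lower. Of all genes tested 29.7% did not overlap in that comparison. Between 30 and 3 μg/kg, which lie within the second index set, 6 of 32 did not overlap either, Soat1 higher and Acat2, Hsd17b7, Srebf2, Stard4 and Acaca lower, against 15.6% of all genes. The sterol enzymes were all lower at 30 than at 3 μg/kg, by a median of -0.24 on the log2 scale and with values from -0.63 for Acat2 to -0.029 for Ebp. None of the 32 members was called, against 0.461% of all genes, whereas 14 had an unadjusted p under 0.05, against 11% of all genes, and neither DESeq2 nor limma voom called any. The smallest adjusted p was 0.201, for Srebf1. Mouse 65 was decisive for the count, since without it Hmgcs1 (-0.79, adjusted p = 0.0153), Idi1 (-0.82, adjusted p = 0.0380), Cyp51 (-0.64, adjusted p = 0.0210) and Scd2 (-1.76, adjusted p = 0.00296) were called lower, against 0.37% of all genes in that fit. The median of the 18 enzymes was -0.40 without mouse 65, with 18 of 18 lower, and -0.10 without mouse 67, with 16 of 18 lower. The adipocyte sums were 46.7, 89.5 and 295 CPM in the mice at 30 μg/kg and 68.4, 46.4 and 26.1 CPM in those at 3 μg/kg, and their part in the difference was not tested beyond a fit with the adipocyte score, where the median was -0.18.

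The sterol enzymes varied together between mice of the same group. After the group mean was taken from each log2 CPM, the 153 pairs of the 18 enzymes had a median Pearson's r of 0.64 over the 27 mice, and 150 pairs were positive. The range ran from -0.15 to 0.92, and the median over all 136050760 pairs of tested genes was -0.0015. These are descriptions, since genes measured in one library share its depth, cell makeup and handling. The closest pairs were Sqle and Msmo1 (r = 0.918), Hmgcs1 and Idi1 (r = 0.897) and Fdps and Lss (r = 0.880). The 21 pairs of mevalonate enzymes were all positive with a median of 0.756, whereas the 28 pairs after lanosterol had a median of 0.416. Over all 27 mice Cyp51 had the highest median r with the other enzymes, at 0.795. Ebp, Dhcr7, Sc5d and Tm7sf2 had the lowest, at 0.227, 0.298, 0.357 and 0.366. Hmgcs1 was above Cyp51 without the group at 30 μg/kg (0.744 against 0.736) and within the first index set (0.765 against 0.722). Without the group at 30 μg/kg Sc5d stood at 0.092. The median over the 153 pairs was 0.572 without the group at 30 μg/kg, 0.619 in the first index set, 0.655 in the second and 0.560 without mice 41, 65, 66 and 67.

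**Figure D3:**
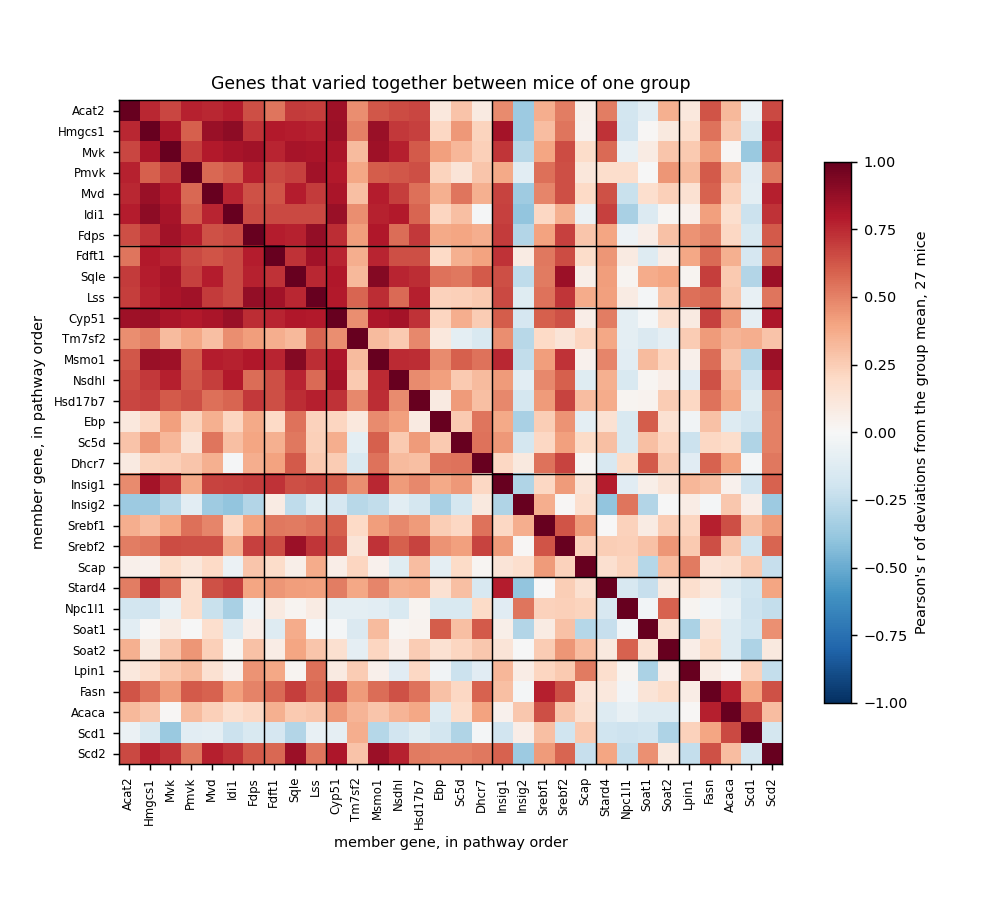
Colour gives Pearson's r between the members' deviations from their group means in log2 CPM over 27 mice, with both axes in pathway order. The block of sterol enzymes at the upper left has a median r of 0.64, and the row of Insig2 is negative against 16 of the 18 enzymes over all mice, though against 7 of the 18 within the second index set.

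The control genes did not all follow the enzymes. Srebf2 and Insig1, both targets of the sterol factor itself, had a median r with the 18 enzymes of 0.643 and 0.625, and all 18 values were positive for each. Srebf1 stood at 0.423 over all mice, at 0.177 within the first index set and at 0.611 within the second. Scap, which varied least of the control genes, stood at 0.090 over all mice, at 0.228 and -0.069 within the sets and at 0.279 without the group at 30 μg/kg. Insig2 had a median of -0.251 and was negative with 16 of the 18 enzymes over all mice, with its lowest enzyme value, -0.393, for Idi1. Within the first index set its median was -0.473, whereas within the second it was 0.034 and 11 of the 18 values were positive. Among the other members, Scd2 (0.635), Fasn (0.562) and Stard4 (0.414) followed the enzymes, whereas the medians of Soat1 (0.027), Npc1l1 (-0.100) and Scd1 (-0.154) were near or below 0. The median of Soat1 covers unlike values, since its r was 0.613 with Dhcr7, 0.605 with Ebp and 0.373 with Sqle but -0.146 with Tm7sf2. Npc1l1 ran from -0.325 with Idi1 to 0.190 with Dhcr7.

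Mouse 41 at 1 μg/kg had the highest CPM of all 27 mice for 10 of the 18 enzymes and for 12 of the 32 members, and mouse 67 had the lowest for 7 of 18 and 9 of 32, followed by mouse 27 at 0.1 μg/kg with 4 of 18. The geometric mean CPM of the 18 enzymes was 1.70 times as high in mouse 41 as in mouse 67. Insig1 ranged from 82.7 CPM in mouse 27 to 216 CPM in mouse 41, and Lss from 55.0 to 131 CPM in these same mice. At 0.1 μg/kg mouse 25 stood apart from mice 27 and 28 in the opposite direction, with Hmgcs1 at 386 CPM against 252 and 251 CPM. The summed CPM of the 18 enzymes ran from 1010.5 to 1349 among these 3 mice, a span wider than the gap between the mean of vehicle and that of 1 or 3 μg/kg. Mouse 41 is the only mouse at 1 μg/kg in the first index set, and its adipocyte sum of 42.8 CPM lay within the vehicle range. Its smooth muscle sum of 315 CPM was above the vehicle range of 66.6 to 113 CPM and above the 46.1 and 41.1 CPM of mice 43 and 44, and the part of those cells in its values was not tested.

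**Figure D4:**
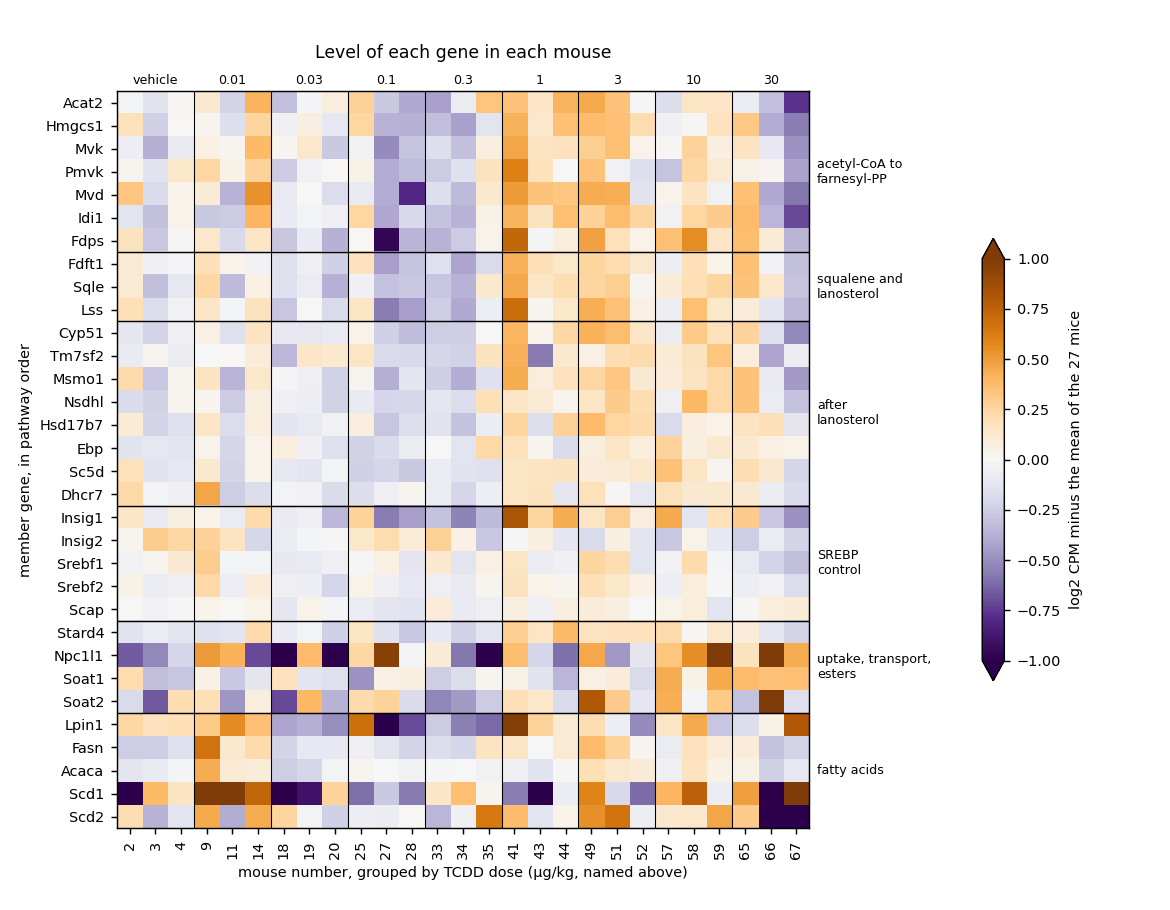
Colour gives log2 CPM minus the mean of the 27 mice for each member (rows, in pathway order) in each mouse (columns, by TCDD dose in μg/kg), cut off at 1 in either direction. Mouse 41 is high and mice 27, 28 and 67 are low through most of the 18 sterol enzymes, and Scap is nearly even across all mice.

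None of the 5 fatty acid genes was called at any dose, and they differed in how far they varied between mice. Scd1, a stearoyl-CoA desaturase abundant in fat tissue, had the widest range of the 32 members, with its highest value 12.8 times its lowest, against 9.36 times for Npc1l1, 4.19 for Lpin1, 1.96 for Fasn and 1.62 for Acaca. Scd1 ranged from 33.6 to 430 CPM. It stood at 49.2, 135 and 116 CPM in vehicle and at 146, 33.6 and 408 CPM at 30 μg/kg, so that mice 66 and 67 lay at opposite ends. Its highest values, 430 CPM in mouse 9 and 408 CPM in mouse 67, fell in the mice with the highest adipocyte sums, 183 and 295 CPM. Its log2 fold change at 30 μg/kg was 0.97, and -0.31 ± 0.40 with the adipocyte score as a covariate (adjusted p = 0.719). Scd2, the desaturase that was most abundant here, stood at 582.5, 392 and 460.5 CPM in vehicle and at 621, 242 and 153 CPM at 30 μg/kg. Mice 66 and 67 had the lowest Scd2 of all 27 mice, while mouse 65 lay above every vehicle mouse. For Scd2 at 30 μg/kg the change was -0.50 on the log2 scale (SE 0.34, adjusted p = 0.369), and -1.28 without mouse 65 (adjusted p = 0.00807). Fasn, the fatty acid synthase, was highest in mouse 9 at 674 CPM and lowest in mouse 66 at 345 CPM. It stood at 357 to 383 CPM in vehicle, at 464 to 674 CPM at 0.01 μg/kg and at 434 to 553 CPM at 3 μg/kg, so that both dosed groups lay above every vehicle mouse, as did 6.33% of all genes at 0.01 μg/kg and 13.1% at 3 μg/kg. The log2 fold changes were 0.58 ± 0.13 (adjusted p = 0.781) at the former dose and 0.45 ± 0.13 (adjusted p = 0.0776) at the latter. For Fasn they were 0.30 at 1 μg/kg, 0.29 at 10 μg/kg and 0.081 to 0.154 at the remaining doses. At 0.01 μg/kg Acaca (163 to 208 CPM against 141 to 151 CPM) and Scd1 (172 to 430 CPM against 49.2 to 135 CPM) were also above every vehicle mouse. The adipocyte sums there were 183, 89.2 and 105 CPM, all above the vehicle range. With the adipocyte score as a covariate the log2 fold changes at 0.01 μg/kg were 0.059 for Scd1 instead of 1.44, 0.18 for Acaca instead of 0.29 and 0.48 for Fasn instead of 0.58. Acaca, the carboxylase before Fasn in the pathway, ranged from 128 to 208 CPM, and Lpin1 from 8.02 CPM in mouse 27 to 33.6 CPM in mouse 41.

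**Figure D5:**
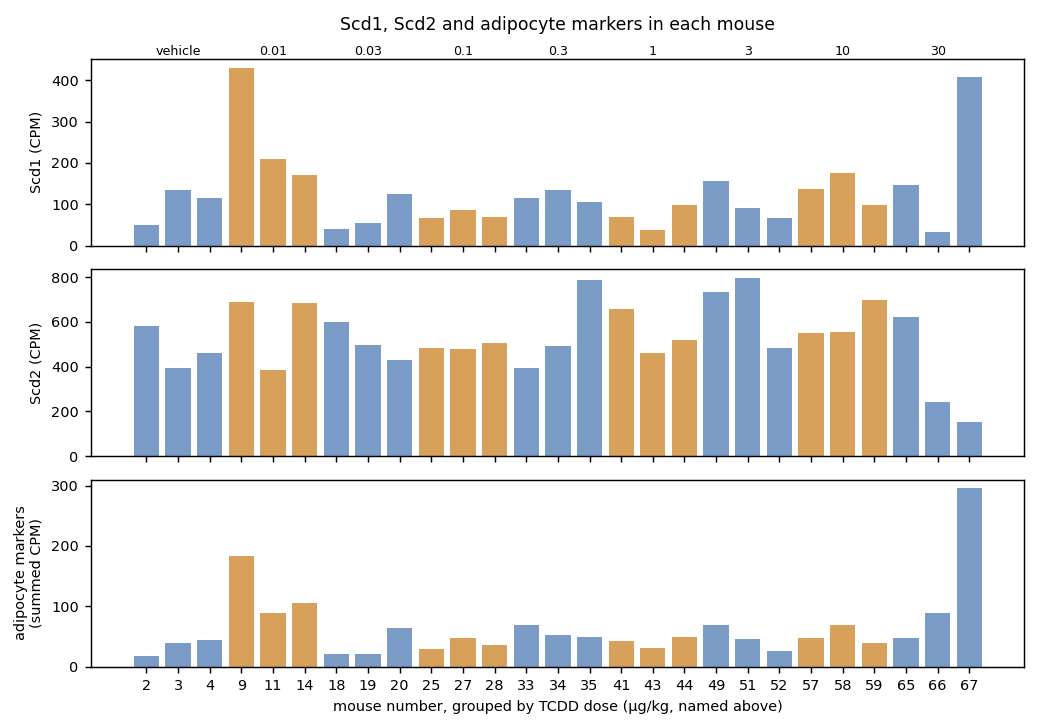
Bars give the CPM of Scd1 and Scd2 and the summed CPM of 10 adipocyte markers in each mouse (x axis, by TCDD dose in μg/kg), each from 0, and the colours only separate neighbouring groups. Scd1 and the adipocyte sum are highest in mice 9 and 67, and Scd2 is lowest in mice 66 and 67.

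Of 54 further genes of sterol and lipid handling, all of them tested, 3 were called at 30 μg/kg, a share below the 6.16% of all genes. Dgat1 and Dgat2, which make triacylglycerol, were higher with log2 fold changes of 0.77 ± 0.14 (adjusted p = 0.00140) and 1.01 ± 0.26 (adjusted p = 0.0163), and Fads1, a fatty acid desaturase, was lower at -0.68 ± 0.21 (adjusted p = 0.0351). At 10 μg/kg only Dgat1 was called (0.62 ± 0.14, adjusted p = 0.0164). None of the 7 genes of SREBP processing, the 10 of isoprenoid and further sterol synthesis, the 12 of sterol trafficking or the 8 of sterol efflux was called at 30 μg/kg. The 3 called genes belong to the 17 of fatty acid synthesis and esterification. Over dose, 10 of the 54 had a called slope upward and 7 downward, against 11.8% and 11.6% of all genes.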

How the data were processed

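RNA was measured in 27 colon libraries made with the NuGen Ovation Mouse RNA-Seq System, and the authors deposited 1 table of read counts per gene for each mouse. The submitters' processing notes name FastQC 0.11.3, Trimmomatic 0.33, TopHat2 2.1.0, SAMtools 1.2.0, HTSeq 0.6.1 and DESeq on GRCm38; the annotation release and strand setting are not given in the sources used here. Closing lines that name no gene (alignments at several places, among others) hold 63.24% to 68.54% of each table's total and were left out, so counts of genes that have close copies elsewhere may be too low. Overlapping genes were counted by the authors with an unknown strand setting.

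Groups were taken from the labelled doses. Counts were fitted as deposited with edgeR 4.0.16 (R 4.3.3; TMM, filterByExpr with a minimum count of 10, 16496 genes kept), with 1 group mean per dose and 1 spread for all 27 mice. The main fits were vehicle against each dose, 30 against 3 μg/kg, and a slope over dose rank in all mice and within each index set, with Benjamini-Hochberg adjustment over all genes tested. Log2 CPM used a prior count of 2. CPM per kb used exon lengths of GENCODE on GRCm38. limma 3.58.1 and DESeq2 1.42.0 were alternatives, as were other size factors, no filter, covariates and leaving out each mouse. The fits were also run on simulated data, and the outcome is not reported here. Mice of a group differed by more than sampling noise in all 27 pairs (chi-square per degree of freedom of 5.35 or more). Depth limits precision for Npc1l1 and Soat2, with as few as 22 and 15 reads in a library. The members and lists were chosen with earlier results of these data known. Values in every group are given for members called at any dose, or with a called slope and a fold of 1.5 at 30 μg/kg, filled up to 6 by the smallest p of the slope. Of the rest, the highest and lowest in each role were named by rule, and others were named after their values were seen. Some genes of the pathway are not reported here.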

Additional observations from a re-analysis of the deposited data

How the results depend on the processing

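No paired analysis was possible because every mouse carries its own number and no number occurs in more than 1 group. No member was called at 0.01 to 3 μg/kg or for the slope within the first index set under any alternative run. Members called at 30 μg/kg numbered 0 in the main fit and 1 with no filter on low counts, with the Hox score as a covariate or with DESeq2 (Npc1l1 in each), and 0 to 2 when single mice were left out (2 without mouse 65, 1 without vehicle mouse 2). At 10 μg/kg the range was 0 to 1 (Soat1 without vehicle mouse 2). Between 30 and 3 μg/kg 1 member, Scd2, was called with the Hox score, and 0 to 4 when mice were left out (4 without mouse 65). The 5 called slopes were 0 with the index set as a term and 0 with the clock score, although the slopes of Soat1 (0.057 and 0.071) and Npc1l1 (0.18 and 0.26) were then no smaller, and 3 (without mouse 59) to 9 (without mouse 67) when mice were left out. Over the 34 alternatives of the slope, Soat1, Insig2 and Ebp were each called in 32, Npc1l1 in 30 and Nsdhl in 26. The 1 called slope within the second set became 2 with no filter (Npc1l1 and Soat1), and 0 (without mouse 44) to 3 (without mouse 65) when mice were left out. With the clock score the Insig2 change at 30 μg/kg turned to 0.14, the Nsdhl slope to -0.0044 and the Sqle slope to -0.019, and without mouse 65 the Nsdhl change at 30 μg/kg turned to -0.059. The clock score and the index set both differ between the low and the high doses, so these fits cannot separate them, and the cause was not tested. Ranges over the 16 alternatives of the change at 30 μg/kg were 0.78 to 2.71 for Npc1l1, 0.38 to 0.76 for Soat1, -0.059 to 0.27 for Nsdhl, 0.14 to 0.46 for Ebp and 0.029 to 0.46 for Sqle.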
